A study of Mus musculus with 3 samples.

Results

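Mmp9-positive mural cells of mouse pancreatic tumours were described by their transcripts. The cells were chosen by measured values: a kept cell belonged to this population when it had at least 1 UMI (unique molecular identifier, which counts a transcript molecule) of Mmp9. It also needed UMIs of at least 3 of the 7 genes Rgs5, Higd1b, Notch3, Cox4i2, Ndufa4l2, Gja4 and Myh11, and none of Epcam or Pecam1. The rule took in 85 of the 773 mural cells that passed this gate, out of 19302 kept cells and 19576 deposited barcodes. Tumours 1, 2 and 3 gave 38, 30 and 17 of them, and 243, 158 and 287 gated cells without a Mmp9 UMI, called Mmp9-negative here. All 3 tumours were of the KPf/fC strain, whose name is usually read as including floxed Trp53 alleles and a Cre recombinase that acts in the pancreas. Both groups compared came from the same tumours, with no treatment, and the labels give no age or sex and do not say whether each tumour came from its own mouse. Cells negative for CD45, CD31 and PDGFRa had been sorted, so blood cells, endothelial cells and many fibroblasts had been gated out, and single-cell RNA libraries had been made with 10x 3' v2 chemistry.

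Mural cells wrap small vessels: pericytes lie within the basement membrane of capillaries, and smooth muscle cells form the contractile coat of arterioles and venules. Mmp9 encodes gelatinase B, a secreted metalloproteinase that cleaves denatured collagen and basement membrane collagen, is made as an inactive proenzyme and is held in check by the TIMP inhibitors. In tumours it is best known as a product of neutrophils and macrophages, and it is linked to matrix turnover and vessel growth.

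Mmp9 was detected in a larger share of gated mural cells than of other cells in each tumour. Mmp9 and Epcam belong to the rule, so these shares describe the population and were not tested. The share was 13.5% (38 of 281 cells), 16% (30 of 188) and 5.59% (17 of 304) in tumours 1, 2 and 3. Among cells with a UMI of Epcam, an epithelial gene, it was 1.26%, 2.50% and 0.518%, although these cells were deeper, with median counts of 10065, 9306 and 7166 UMIs against 5437, 5895 and 3389.5 in the gated cells. With every cell thinned to 3000 UMIs, the gated shares were 10.7%, 12.2% and 7.07%, and the exact binomial 95% interval of tumour 3 reached from 3.82% to 11.8%. The thinned shares of Epcam-detected cells were 0.569%, 0.891% and 0.229%. Thinning left out 120 gated cells, all in tumour 3. The mean difference was 9.43 ± 2.33 percentage points (SD, n = 3), and 8.98 ± 2.30 against all other kept cells. Gated cells held 46.1%, 24.7% and 20.9% of the Mmp9 UMIs of all kept cells of tumours 1, 2 and 3. Most Mmp9 transcripts of the kept cells thus lay outside the gate. Blood cells had been sorted out, so these are not shares of the Mmp9 of whole tumours.

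**Figure D1:**
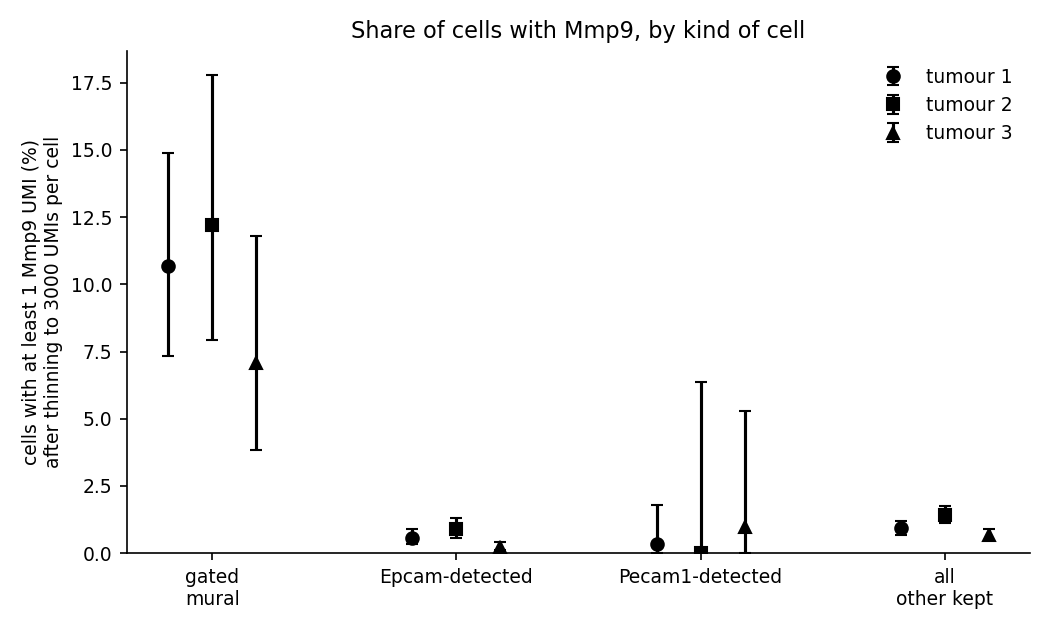
Percent of cells with at least 1 Mmp9 UMI after thinning each cell to 3000 UMIs, for 4 kinds of cell; each point is 1 tumour, and bars are exact binomial 95% intervals, which cover counting error only. The gated mural cells lie at 10.7%, 12.2% and 7.07%, above the Epcam-detected cells and all other kept cells in each tumour.

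Within the population, Mmp9 ranged from 1 UMI to 69 UMIs per cell, with a median of 4. A single UMI was seen in 31 cells, and 36 cells had 5 or more, of which 19, 14 and 3 lay in tumours 1, 2 and 3. The level over the summed cells was 1398, 869 and 589 CPM (UMIs of a gene scaled to a sum of 1000000) in tumours 1, 2 and 3. These levels describe the choice of cells and were not tested. At the edge of the rule, cells with 2 gate markers and no Epcam or Pecam1 UMI had Mmp9 in 10.3%, 5.74% and 7.59% of cells, and cells with exactly 3 gate markers in 21.3%, 21.6% and 16.9%. Of cells with all 7 gate markers, 0 of 25, 1 of 17 and 0 of 21 had Mmp9. The Epcam and Pecam1 conditions took out 69, 42 and 78 cells with 3 or more gate markers, among which 11, 2 and 3 had Mmp9.

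The pericyte-like label was set against pericyte genes that the rule did not use, and they did not all go with it. Pdgfrb, the PDGF receptor of mural cells, was present in 82 of the 85 cells and in 599 of 688 Mmp9-negative cells. Of 13 tested pericyte genes outside the gate, 1 (Cspg4) was higher than in Mmp9-negative cells. The 2 that were lower were Vtn, at a mean of 19.2 against 92.1 CPM, and Steap4, at 5.62 against 46.9 CPM. The gate itself fixed the presence of its own markers, so their values describe the cells and check nothing: Rgs5, a regulator of G protein signalling, was present in 80 of the 85, Notch3 in 49 and Cox4i2 in 45. Myh11, the smooth muscle myosin heavy chain, was present in 4 of 85 Mmp9-positive cells and in 200 of 688 Mmp9-negative cells. Rgs5 stood at 2642, 1902 and 1668 CPM in the Mmp9-positive cells of tumours 1, 2 and 3 and at 4378, 4278 and 6258 CPM in the Mmp9-negative cells. Its share of cells with a UMI was close in the 2 groups, at 94.1% and 95.5%. The Mmp9-positive cells carried fewer gate markers on average, 4.34, 4.30 and 3.53 per cell against 5.01, 4.90 and 4.79.

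Markers of the blood cells that make Mmp9 gave few counts in the Mmp9-positive cells. Of 12 neutrophil markers, 11 had no UMI, S100a8 among them, and their summed level was 4.29, 0 and 0 CPM, against 1.95, 5.70 and 44.7 CPM in Mmp9-negative cells. Of 11 macrophage markers in the matrix 7 had none, Lyz2 among them, with sums of 25.7, 0 and 22.2 CPM from 8 counts in all, against 18.9, 15.2 and 17 CPM, so the macrophage sum was the higher one in tumours 1 and 3. Ptprc, which encodes CD45, was seen in 0 of 85 cells, which allows a share of up to 3.53% of cells with a UMI. Epithelial markers summed to 266, 295 and 133 CPM, against 504, 296 and 260 CPM in Mmp9-negative cells and 7603, 3890 and 6334 CPM in all other kept cells. Krt18 had a UMI in 27 of 85 Mmp9-positive and 208 of 688 Mmp9-negative cells. Fibroblast markers summed to 583, 371 and 378 CPM against 1286, 1171 and 727 CPM, acinar markers to 515, 67.8 and 33.4 against 1902, 27.6 and 91.2, and adipocyte markers to 60.1, 160 and 133 against 949, 794 and 1682. The part of these differences in the results was tested only where a restricted set of cells is named.

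Depth was similar between the groups in tumours 1 and 2 and differed in tumour 3. The summed counts were 233117, 250770 and 89919 UMIs for the Mmp9-positive cells and 1537134, 1051865 and 1118945 for the Mmp9-negative cells. Median counts per cell were 5723.5, 6992 and 5165 UMIs against 5403, 5738.5 and 3240. A level of 3 counts, taken as the floor, equals 12.9, 12 and 33.4 CPM in the Mmp9-positive sums. No barcode was shared between tumours among the gated cells, and Scrublet marked 3 Mmp9-positive cells as likely doublets, all in tumour 2.

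Against Mmp9-negative mural cells, the Mmp9-positive cells had higher levels of the protease Mmp10, the collagen Col10a1 and the chemokines Ccl2 and Ccl7, and lower levels of contractile smooth muscle genes and of the caveolins Cav1 and Cav2. Counts were summed per tumour and group and fitted with edgeR's quasi-likelihood test with the tumour as a block. Of 6462 genes tested, 182 (2.82%) passed a Benjamini-Hochberg adjusted p of 0.05 and are called changed. Of these, 59 were higher (0.913% of genes tested) and 123 lower (1.90%) in Mmp9-positive cells, and 177 moved the same way in all 3 tumours. These shares are the background for the counts of called genes in each list below. By levels alone, all 3 Mmp9-positive values lay above all 3 Mmp9-negative values for 406 genes (6.28%) and below them for 413 (6.39%). Over the tested genes, the log2 fold change had a median of -0.01. Leaving out tumour 1 lowered the count most: 23 genes were called without it, 161 without tumour 2 and 89 without tumour 3. Among gated cells with 0 Myh11 UMIs, a restriction chosen after seeing the data, 28 genes were higher and 59 lower.

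**Figure D2:**
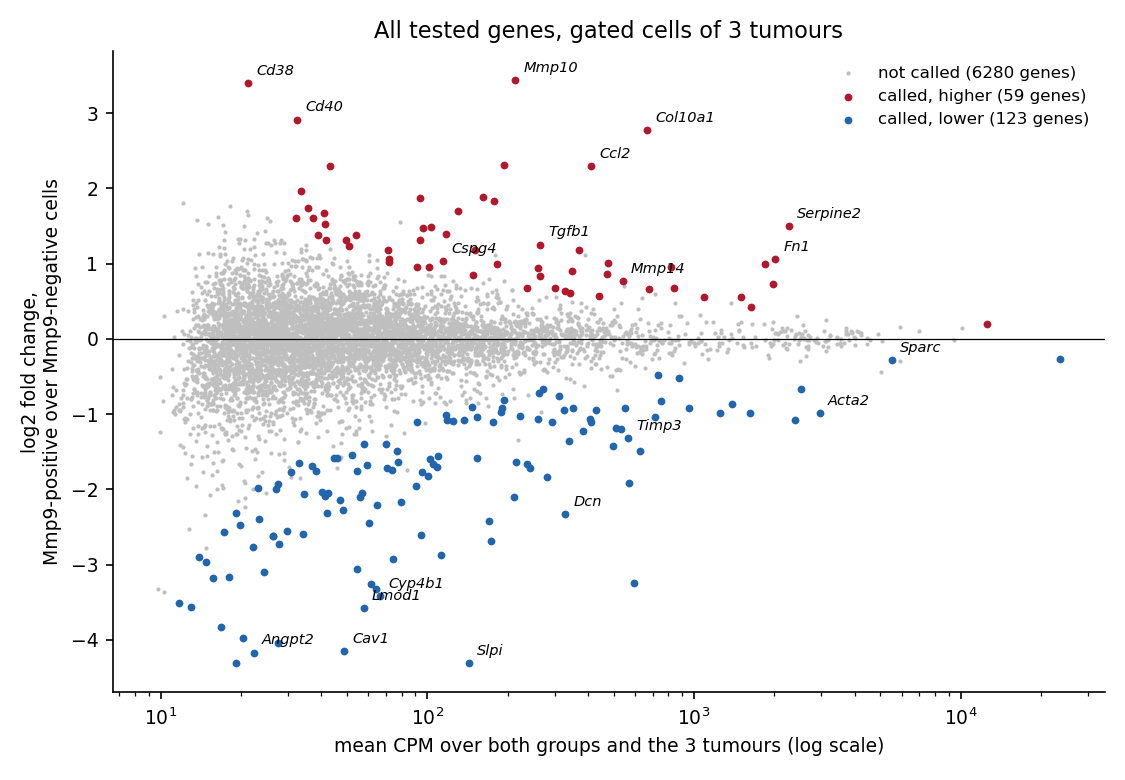
Log2 fold change of Mmp9-positive over Mmp9-negative gated cells (vertical axis) against mean CPM (horizontal axis, log scale) for the 6462 tested genes; red and blue points are the 59 genes called higher and the 123 called lower. Mmp10, Col10a1, Ccl2 and Serpine2 combine high levels with large differences, and Slpi, Angpt2 and Cav1 lie lowest among the labelled genes.

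Among other extracellular proteases, Mmp10 rose most. Mmp10 encodes stromelysin 2, a metalloproteinase that cleaves several matrix proteins and can activate other proenzymes. Its level was 480, 526 and 167 CPM in the Mmp9-positive cells of tumours 1, 2 and 3 and 34.5, 64.6 and 10.7 CPM in the Mmp9-negative cells. The groups did not overlap, and the log2 fold change was 3.44 ± 0.23 (SE, n = 3 tumours; edgeR adjusted p = 7.99e-08). At 7.44, 11.7 and 3.21 CPM, the level in all other kept cells was below that of either mural group in each tumour. In single cells, 26 of 85 Mmp9-positive cells and 29 of 688 Mmp9-negative cells had a Mmp10 UMI.

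Of 22 other metalloproteinases and inhibitors listed, 8 passed the filter on low counts, 2 were higher and 3 lower. The list's median log2 fold change was -0.19, against -0.01 for all tested genes. Mmp14, a membrane-anchored collagenase that activates proMmp2, stood at 1120, 582 and 378 CPM against 438, 364 and 359 CPM. The difference was wide in tumour 1 and small in tumour 3 (log2 fold change 0.77 ± 0.18, edgeR adjusted p = 0.0288; without tumour 1, 0.38 and 0.811). Timp3, an inhibitor bound to the matrix, fell from 602, 665 and 1229 CPM to 386, 271 and 245 CPM, with no overlap (-1.32 ± 0.21, adjusted p = 9.83e-04). The call of Timp3 was lost with at least 4 gate markers (-0.69, adjusted p = 0.124), without Dcn or Krt18 UMIs (-1.24 and 0.217) and with at least 5 Mmp9 UMIs (-0.89 and 0.165). Mmp23 (-1.65 ± 0.40) and Timp2 (-0.66 ± 0.17) also fell, with adjusted p-values of 0.0311 and 0.0496 in edgeR, and the call of Mmp23 was lost whichever tumour was left out (0.419, 0.206 and 0.117 without tumours 1, 2 and 3). The gelatinase Mmp2 was at 129, 55.8 and 33.4 CPM against 82.0, 97.0 and 84.0 CPM (-0.19 ± 0.32, adjusted p = 0.918). Timp1, the main soluble inhibitor of Mmp9, did not pass the test either (-0.20 ± 0.15, adjusted p = 0.749), but was 0.96 ± 0.19 higher with an adjusted p of 0.00155 among cells with at least 4 gate markers. Lcn2, whose product binds Mmp9, was at 17.2, 7.98 and 22.2 CPM against 18.9, 13.3 and 46.5 CPM, and Cd44, a surface receptor that holds Mmp9, was at 90.1, 112 and 189 against 186, 158 and 193 CPM. Neither passed (edgeR adjusted p = 0.778 and 0.262). Mmp13, an interstitial collagenase, did not pass the filter and was not tested. It had 98.7, 35.9 and 11.1 CPM against 11.7, 7.61 and 8.04 CPM, from 33 and 35 counts.

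Of 23 other extracellular proteases and inhibitors, 19 were tested, 2 were higher and 1 lower, against 0.913% and 1.90% of all tested genes. Serpine2, which encodes protease nexin 1, an inhibitor of thrombin and plasminogen activators, had 3063, 2397 and 4671 CPM in Mmp9-positive cells and 988, 960 and 1501 CPM in Mmp9-negative cells. Its lowest positive value exceeded its highest negative value, and its difference of 1.5 ± 0.09 had the smallest adjusted p of all tested genes (edgeR, 5.22e-08). The secreted serine protease Htra3 rose by 1.18 ± 0.28 on the log2 scale (adjusted p = 0.0288; 0.382 without tumour 1 and 0.214 without tumour 3). Cst3, encoding the cathepsin inhibitor cystatin C, fell from 826, 923 and 3426 CPM to 489, 606 and 1223 CPM (adjusted p = 4.48e-04; 0.085 without tumour 1).

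**Figure D3:**
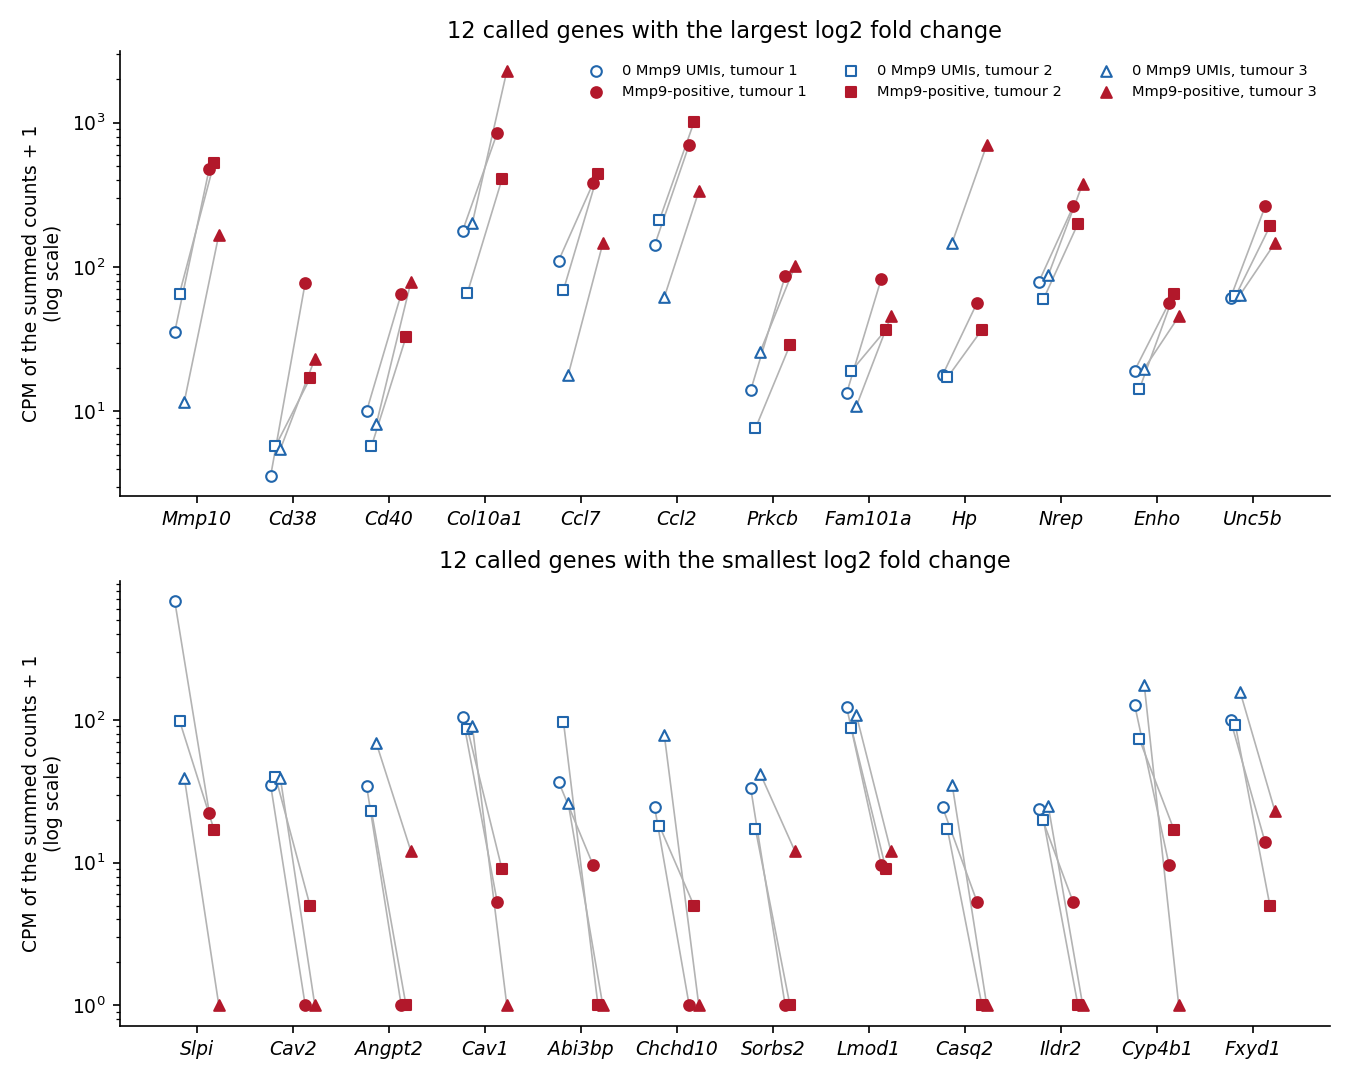
CPM of the summed counts plus 1, on a log axis, in Mmp9-positive cells (filled) and Mmp9-negative cells (open) of tumours 1 (circles), 2 (squares) and 3 (triangles), joined within a tumour; the 12 called genes with the largest and the 12 with the smallest log2 fold change are shown. Every line rises in the upper panel and falls in the lower one, which the choice of genes requires, and points at 1 in the lower panel are sums without a count.

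The stretches just upstream of the gene starts are shown for Mmp10 and Col10a1, the called genes with the highest levels among those with the largest changes and a match in the sequence table, and for Cav2, which fell. Sequences are from RefSeq (build GRCm38.p6), cover the 250 bases before the start of each gene and are written 5′ to 3′ along the gene's strand, the plus strand in each. Capitals mark an AP-1 motif (TGANTCA) or a TATA box (TATAAA, either strand). They lie at chr9:7502092-7502341, chr10:34389731-34389980 and chr6:17280935-17281184.
Mmp10: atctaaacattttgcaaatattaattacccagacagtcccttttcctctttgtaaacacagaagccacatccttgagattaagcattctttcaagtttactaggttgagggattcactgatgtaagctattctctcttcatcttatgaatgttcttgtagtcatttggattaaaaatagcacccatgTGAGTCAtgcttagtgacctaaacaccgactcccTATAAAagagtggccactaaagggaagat
Col10a1: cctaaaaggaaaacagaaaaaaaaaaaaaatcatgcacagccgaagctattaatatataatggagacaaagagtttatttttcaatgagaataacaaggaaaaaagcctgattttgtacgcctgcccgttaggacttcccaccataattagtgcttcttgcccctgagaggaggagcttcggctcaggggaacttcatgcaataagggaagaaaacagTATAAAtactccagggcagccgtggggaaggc
Cav2: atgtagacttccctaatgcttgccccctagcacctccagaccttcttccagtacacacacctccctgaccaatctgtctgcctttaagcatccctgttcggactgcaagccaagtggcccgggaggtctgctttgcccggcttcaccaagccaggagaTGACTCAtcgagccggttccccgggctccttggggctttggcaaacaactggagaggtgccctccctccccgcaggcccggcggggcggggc

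The AP-1 motif of Mmp10 begins 63 bases before the gene start and its TATA box 29 bases before, and the TATA box of Col10a1 begins 32 bases before. Of the 24 genes with the largest or smallest log2 fold changes, 15 matched the sequence table, 5 higher and 10 lower. AP-1 motifs were found in 1 of the 5 (Mmp10) and 2 of the 10 (Cav2 and Cyp4b1), against 6.75% of 32851 upstream windows of the same length. TATA boxes were found in 2 of the 5 and 1 of the 10, against 12.4% of windows. Neither a RUNX motif (TGTGGT, either strand; 14% of windows) nor an SRF CArG box (1.47%) was present in any of the 15, and none of the motifs overlapped in the sequences printed. A match describes letters and was not tested as a binding site. Of 17 tested AP-1 and early response genes (20 listed), Fos and Jun among them, none was called by edgeR or DESeq2. Their median log2 fold change was -0.10, and 1 higher and 1 lower gene had an unadjusted p under 0.05. With 2.82% of all tested genes called, 0 calls among 17 genes lie near that share.

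Genes of cartilage and bone were among those that rose. Col10a1 encodes the collagen of hypertrophic cartilage. It had 849, 407 and 2280 CPM in Mmp9-positive cells and 178, 65.6 and 200 CPM in Mmp9-negative cells, highest in tumour 3 and with no overlap (2.77 ± 0.19, edgeR adjusted p = 1.19e-07). A Col10a1 UMI was present in 49 of 85 Mmp9-positive and 99 of 688 Mmp9-negative cells. Dmp1, a phosphoprotein of mineralised matrix, had 330, 99.7 and 11.1 CPM against 86.5, 19 and 16.1 CPM, higher in tumours 1 and 2 only (1.87 ± 0.30, adjusted p = 0.00102; 0.413 without tumour 1). Of 16 listed ossification and cartilage genes 5 were tested, 2 rose and none fell, with a median of 0.81. Runx2, a transcription factor of bone and cartilage, did not pass (0.81 ± 0.48, edgeR adjusted p = 0.626). Ibsp, bone sialoprotein, was not tested and had 16 counts in Mmp9-positive and 11 in Mmp9-negative cells.

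Of 27 listed genes of the fibrillar and interstitial matrix 26 were tested, 4 were higher and 3 lower, with a median log2 fold change of 0.06. Fn1, encoding fibronectin, had 2068, 2939 and 3247 CPM against 1326, 1585 and 932 CPM, without overlap (1.06 ± 0.14, edgeR adjusted p = 2.40e-04; 0.0643 without tumour 1). Smaller rises were called for Postn (0.56 ± 0.10), Col5a2 (0.56 ± 0.12) and Bgn (0.42 ± 0.10). All 3 lost their call without tumour 1 (edgeR adjusted p = 0.214, 0.396 and 0.572) or tumour 3 (0.110, 0.169 and 0.314), with at least 4 gate markers and in DESeq2. Dcn, encoding the proteoglycan decorin and typical of fibroblasts, fell from 745, 450 and 399 CPM to 176, 27.9 and 178 CPM (-2.33 ± 0.28, adjusted p = 9.70e-05; 0.135 without tumour 1). It had a UMI in 15 of 85 and 178 of 688 cells. Lum, encoding lumican, and Lox, a collagen cross-linking enzyme, fell with it (-1.71 ± 0.38 and -2.27 ± 0.50 in edgeR), and each lost its call whichever tumour was left out, with adjusted p-values from 0.0648 to 0.223 for Lum and from 0.0962 to 0.389 for Lox. Dcn and Lum belong to the fibroblast marker sums given above, so those sums are no separate observation. Of the 6 tested markers of that list, Dcn and Lum were the 2 called. Among cells without Dcn or Krt18 UMIs, a restriction chosen after seeing the data, 20 genes of this list were tested and 4 were higher. Dcn, Lum and Lox were not among the 20, so their decreases were not tested there.

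Of 24 basement membrane genes 14 were tested, 1 rose and 2 fell, against 0.913% and 1.90% of all tested genes. Col15a1, a collagen at the outer face of vessel basement membranes, had 596, 403 and 556 CPM against 268, 271 and 122 CPM (1.18 ± 0.21, edgeR adjusted p = 0.00353; 0.406 without tumour 1 and 0.0586 without tumour 3). Lamb2, a laminin chain, fell by 1.40 ± 0.34 on the log2 scale and Sparc by 0.28 ± 0.06. Lamb2 lost its call without tumour 1 (adjusted p = 0.416) or 3 (0.2), and Sparc whichever tumour was left out (0.0957 to 0.356). The capillary collagen gene Col4a1, a substrate chain of gelatinases, stood at 2278, 1619 and 3314 CPM against 1724, 1773 and 2716 CPM and was not called (0.15 ± 0.10, adjusted p = 0.671). None of 13 tested integrin and cadherin genes, of 22 listed, was called by edgeR or DESeq2, and 4 higher and 1 lower had an unadjusted p under 0.05. With 2.82% of all tested genes called, 0 calls among 13 genes lie near that share.

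The 2 chemokines of monocytes, Ccl2 and Ccl7, rose. Ccl2 had 704, 1009 and 334 CPM against 141, 211 and 60.8 CPM (2.29 ± 0.15, edgeR adjusted p = 7.99e-08), and Ccl7 had 382, 443 and 145 CPM against 110, 68.4 and 17 CPM (2.31 ± 0.23, adjusted p = 1.22e-05). Both groups were apart for each gene, and tumour 3 had the lowest level in each group. The UMIs came from a minority of cells: a Ccl2 UMI was present in 24 of 85 Mmp9-positive and 83 of 688 Mmp9-negative cells. By tumour, these shares were 21.1%, 43.3% and 17.6% against 18.5%, 17.1% and 3.83%. For Ccl7 they were 18.4%, 26.7% and 11.8% against 14.8%, 14.6% and 2.09%. The shares were thus close in tumour 1, where the levels differed widely. In tumour 3 only 3 Mmp9-positive cells had a Ccl2 UMI and 2 a Ccl7 UMI. Of 30 listed chemokines, cytokines and colony-stimulating factors 9 were tested, 2 were higher and 1 lower, with a median of 0.41. That median depended on the setting, and was -0.07 without tumour 1 and -0.56 for cells with at least 5 Mmp9 UMIs. Cxcl14 was the gene that fell, at 12.9, 67.8 and 77.8 CPM against 204, 193 and 46.5 CPM, and was higher in tumour 3 (-1.82 ± 0.44, adjusted p = 0.0296; 0.786 without tumour 1). Il6 (0.65 ± 0.22) and Cxcl1 (-0.16 ± 0.25) did not pass (edgeR adjusted p = 0.194 and 0.901).

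Cd40, Cd38 and Prkcb, which blood cells also express, were among the 12 largest rises, at low levels. Cd40, a receptor of the TNF receptor family, had 64.3, 31.9 and 77.8 CPM against 9.11, 4.75 and 7.15 CPM, from 30 and 27 counts (2.91 ± 0.43, edgeR adjusted p = 5.78e-04; 0.156 without tumour 1). Cd38, an enzyme that consumes NAD, had 77.2, 16 and 22.2 CPM against 2.60, 4.75 and 4.47 CPM (3.40 ± 0.64, adjusted p = 0.00522; 0.808 without tumour 1). The Cd38 value of tumour 3 lay below the floor of 3 counts. Prkcb, a protein kinase C, had 85.8, 27.9 and 100 CPM against 13, 6.65 and 25.0 CPM (2.29 ± 0.36, adjusted p = 0.00111; 0.249 without tumour 1). Lymphocyte markers summed to 25.7, 16 and 0 CPM in Mmp9-positive and 20.8, 17.1 and 9.83 CPM in Mmp9-negative cells, with 9 of 10 at 0. The part of blood cell RNA in these rises was not tested.

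The remaining genes of the 12 largest rises were Fam101a, Hp, Nrep, Enho and Unc5b. Hp encodes the haemoglobin-binding protein haptoglobin and was highest in tumour 3, at 701 CPM against 147, while tumours 1 and 2 had 55.8 and 35.9 against 16.9 and 16.2 CPM (1.89 ± 0.27, edgeR adjusted p = 3.40e-04; 0.0648 without tumour 1 and 0.178 without tumour 3). The Hp counts came from few cells: in tumour 3, 1 cell held 61 of the 63 counts, and in tumour 1, 1 cell of 38 held all 13. A Hp UMI was present in 2.63%, 16.7% and 17.6% of Mmp9-positive and 3.29%, 5.06% and 9.06% of Mmp9-negative cells. Unc5b, a netrin receptor, had 262, 191 and 145 CPM against 60.5, 61.8 and 63.5 CPM (1.70 ± 0.23, adjusted p = 2.22e-04; 0.117 without tumour 1). Nrep had 262, 199 and 378 CPM against 77.4, 58.9 and 86.7 CPM (1.83 ± 0.20, adjusted p = 3.07e-05). Fam101a (1.97 ± 0.42) lost its call without tumour 1 or 3 (adjusted p = 0.737 and 0.11), and Enho (1.74 ± 0.37), which encodes the secreted peptide adropin, without tumour 1 or 2 (0.293 and 0.188).

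In single cells, the rising genes did not mark all Mmp9-positive cells. Mmp10 and Col10a1 were found together in 14 of 85 cells, and 69 cells had a UMI of Mmp10, Col10a1 or Ccl2. The other 16 had none, which at these depths does not show absence. Levels were next set against the number of Mmp9 UMIs per cell, as a description. Mmp10 averaged 36.6 CPM over the tumours in cells with 0 Mmp9 UMIs, 233 CPM with 1, 655 CPM with 2 to 4 and 404 CPM with 5 or more. Col10a1 averaged 148, 1209, 1299 and 1106 CPM over the same classes, so cells with a single Mmp9 UMI already had most of the difference. Ccl2 averaged 138, 489, 1235 and 490 CPM, and in tumour 3 the 3 cells with 5 or more Mmp9 UMIs had none. In tumour 2 Ccl2 was at 1112 CPM with 1 Mmp9 UMI, 608 CPM with 2 to 4 and 1082 CPM with 5 or more.

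The genes whose levels were most like that of Mmp9 were chosen among the 59 higher genes as those rising at each step of Mmp9 UMIs. None of the 59 did so within all 3 tumours, and 18 did so in the mean over tumours. Of the 18, the 6 with the largest ratio of the highest class to the lowest were Nrep (5.92), Unc5b (5.32), Enho (4.63), Serpine2 (3.97), Fn1 (3.42) and Cd276 (3.31), each over 4 classes and 3 tumours. Serpine2 averaged 1150, 2309, 3597 and 4560 CPM in the 4 classes, and rose at each step in tumours 1 and 3 but not at the last step in tumour 2. Cd276, encoding the B7-H3 surface protein, averaged 28.5, 64.2, 83.7 and 94.1 CPM (1.38 ± 0.30 between the groups, edgeR adjusted p = 0.0162; 0.38 without tumour 1 and 0.163 without tumour 3). Rgs5, a gate gene, averaged 4971, 2123, 1757 and 2217 CPM.

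**Figure D4:**
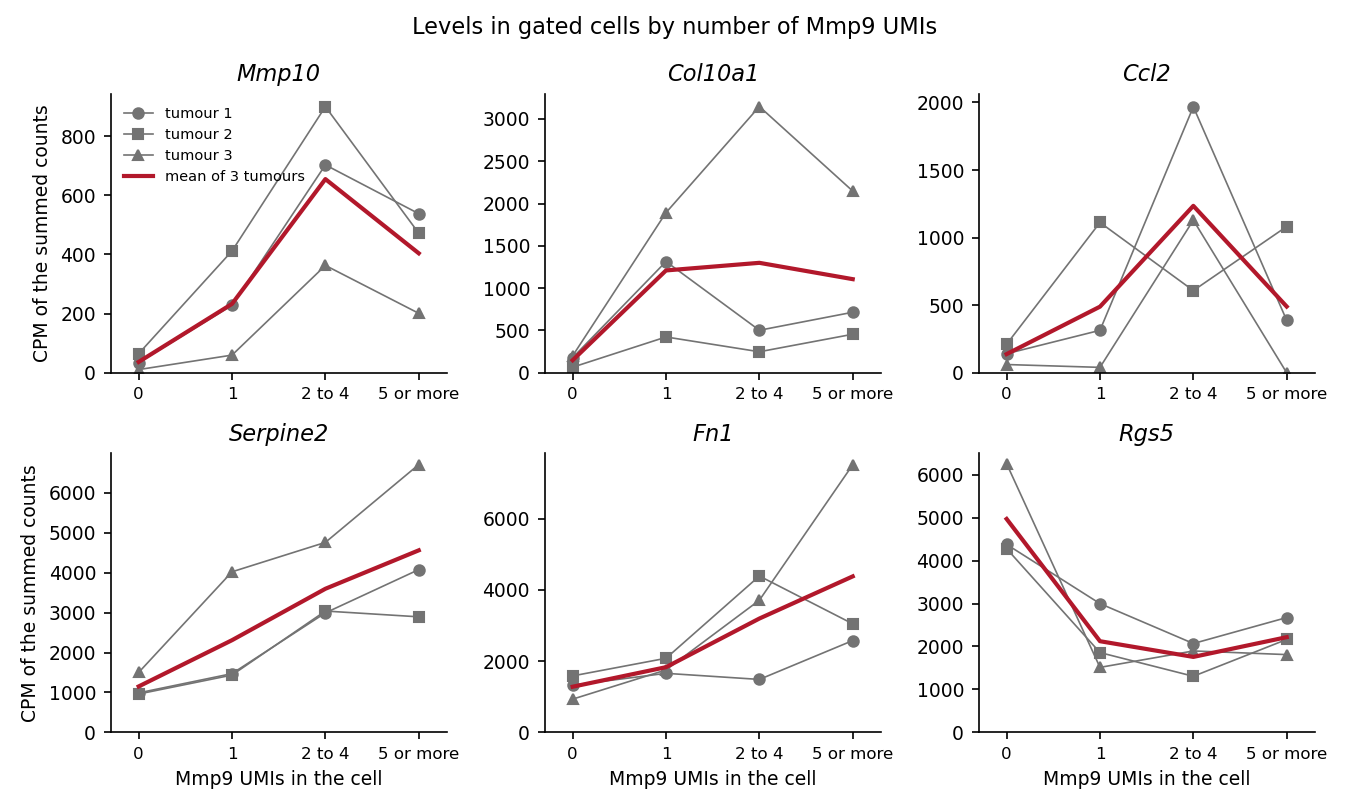
CPM of the summed counts of 6 genes (vertical axes) in gated cells with 0, 1, 2 to 4 and 5 or more Mmp9 UMIs (horizontal axes); grey symbols are tumours 1 to 3 and the red line is their mean. In the mean, Serpine2 and Fn1 rise at each step, and Mmp10 and Ccl2 peak at 2 to 4 UMIs. Ccl2 does not peak there in tumour 2. The class of 2 to 4 UMIs holds 8, 5 and 5 cells of tumours 1, 2 and 3, and the highest class holds 19, 14 and 3.

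Contractile genes were lower in Mmp9-positive cells. Of 22 listed smooth muscle genes 18 were tested, 12 fell and none rose, with a median log2 fold change of -0.97; DESeq2 called 8 lower and none higher, and no gene was higher at an unadjusted p under 0.05. Acta2, smooth muscle actin, had 1682, 2472 and 1868 CPM against 4817, 4141 and 2773 CPM (-0.99 ± 0.13, edgeR adjusted p = 1.36e-04), and Tagln, its partner transgelin, had 712, 941 and 1857 CPM against 2211, 2025 and 1990 CPM (-0.99 ± 0.18, adjusted p = 0.00341; 0.478 without tumour 1). Tumour 3 showed little difference in Tagln. The decreases were larger for Lmod1, a nucleator of actin filaments in smooth muscle, at 8.58, 7.98 and 11.1 CPM against 122, 86.5 and 108 CPM (-3.58 ± 0.42, adjusted p = 6.71e-05; 0.0534 without tumour 1). The Mmp9-positive values of Lmod1 rest on 5 counts in all and lie below the floor of 3 counts in each tumour. Myl9 (-1.49 ± 0.14), Mylk (-1.20 ± 0.14), Mustn1 (-2.42 ± 0.29), Tpm1, Tpm2, Actg2, Cnn1 (-2.55 ± 0.54), Synpo2 (-2.47 ± 0.55) and Casq2 completed the 12.

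The size of the contractile difference moved with the cells compared, in both directions. Cells with a UMI of Myh11, a gate gene, made up 29.1% of the Mmp9-negative and 4.71% of the Mmp9-positive cells. Among gated cells with 0 Myh11 UMIs, 14 contractile genes were tested, 3 fell and none rose, with a median of -0.22 against -0.02 for all genes tested there. Acta2 (-0.31 ± 0.14, edgeR adjusted p = 0.498) and Tagln (-0.13 ± 0.20, adjusted p = 0.909) were no longer called, whereas Lmod1 was (-2.96 ± 0.58, adjusted p = 0.0214). The differences were larger among cells without Dcn or Krt18 UMIs, where 9 of 13 tested genes fell with a median of -1.82, Acta2 by 2.20 ± 0.14 and Tagln by 2.05 ± 0.20. With at least 4 gate markers 9 of 15 fell, with a median of -1.20, Acta2 by 1.63 ± 0.17 and Tagln by 1.47 ± 0.16. Without tumour 1, 2 or 3 the list had 3, 9 and 9 genes that fell. Mmp10, Col10a1, Ccl2, Ccl7, Serpine2 and Fn1 were called higher among the cells without Myh11 UMIs as well, by 3.43 ± 0.30, 2.40 ± 0.20, 2.22 ± 0.15, 2.23 ± 0.25, 1.39 ± 0.08 and 0.95 ± 0.15 on the log2 scale.

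**Figure D5:**
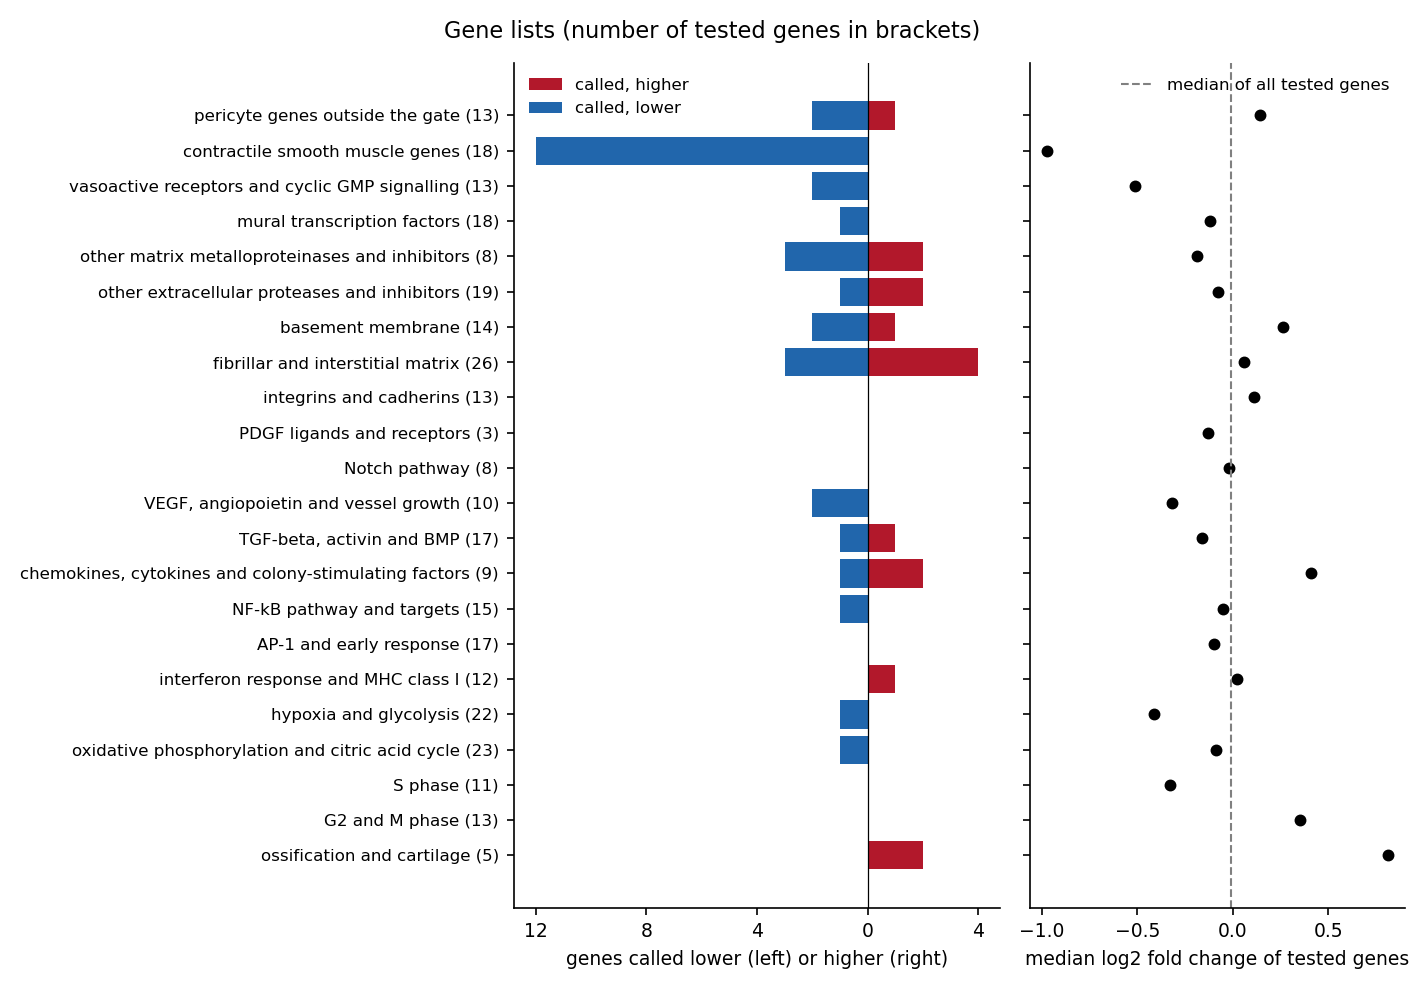
Number of genes called lower (blue, to the left) and higher (red, to the right) in Mmp9-positive cells for each gene list, with the number tested in brackets, and the median log2 fold change of the tested genes (right panel; dashed line, median of all tested genes). The contractile list has 12 of 18 tested genes lower and the lowest median, -0.97, and the ossification list has the highest, 0.81, over 5 genes.

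The genes with the smallest log2 fold changes rested on few counts in Mmp9-positive cells, so their fitted values depend on the prior count. Cav1, which builds caveolae, the small pits of the cell membrane, had 3 counts in Mmp9-positive cells and 351 in Mmp9-negative cells. Its pooled rate was 18.1 times higher in Mmp9-negative cells, with an exact 95% counting interval from 6.14 to 88.2. Its partner Cav2 had 1 and 136 counts, a ratio of 21.0 with an interval from 3.71 to 837. Angpt2, the vessel-destabilising ligand of the receptor Tie2, had 1 and 150 counts (ratio 23.2, interval 4.10 to 923). The ratios of Abi3bp, Chchd10, Sorbs2, Casq2 and Ildr2, with 1 or 2 counts in Mmp9-positive cells, lay from 12.7 to 21.8. Without tumour 1 none of these 8 genes was called (edgeR adjusted p = 0.0648 for Cav1 to 0.567 for Sorbs2). Without tumour 3 Cav2 (0.0518), Angpt2 (0.0609), Chchd10 (0.23), Sorbs2 (0.0813), Casq2 (0.223) and Ildr2 (0.201) were not called, and without tumour 2 Abi3bp (0.173), Casq2 (0.152) and Ildr2 (0.243) were not.

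Slpi, a secreted inhibitor of neutrophil elastase, had 21.4, 16 and 0 CPM against 682, 97.9 and 38.4 CPM, a gap that was widest in tumour 1 (-4.31 ± 0.40, edgeR adjusted p = 4.75e-06; -2.87 and 0.117 without tumour 1). Cyp4b1, a cytochrome P450, had 8.58, 16 and 0 CPM against 127, 72.3 and 176 CPM (-3.42 ± 0.46, adjusted p = 2.22e-04; 0.139 without tumour 1). Fxyd1, a regulator of the sodium pump, had 12.9, 3.99 and 22.2 CPM against 98.2, 91.3 and 156 CPM (-3.32 ± 0.41, adjusted p = 1.02e-04; 0.0521 without tumour 1). Fabp4, the fatty acid carrier that made up most of the adipocyte marker sum, fell from 946, 793 and 1512 CPM to 55.8, 156 and 111 CPM (-3.24 ± 0.23, adjusted p = 1.83e-07); it was chosen after its values were seen.

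Both receptors that fell among the vasoactive genes signal contraction or relaxation of vessels. Of 21 listed receptors and cyclic GMP genes 13 were tested, 2 fell and none rose, with a median of -0.51. Over all tested genes, 1.90% were called lower. Ednrb, the endothelin B receptor, had 172, 187 and 578 CPM against 414, 366 and 1354 CPM and was lower in each tumour (-1.19 ± 0.15, edgeR adjusted p = 1.02e-04). Agtr1a, the angiotensin II receptor, fell from 80.7, 63.7 and 65.2 CPM to 34.3, 19.9 and 11.1 CPM (-1.58 ± 0.36, adjusted p = 0.0234), with adjusted p-values of 0.261, 0.104 and 0.133 without tumours 1, 2 and 3.

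Pericyte genes outside the gate did not move together. Of 16 listed, 13 were tested, 1 rose and 2 fell, with a median of 0.14. Over all tested genes, 0.913% were called higher and 1.90% lower. Cspg4, the NG2 proteoglycan of pericytes, had 210, 140 and 111 CPM against 120, 55.1 and 50.0 CPM (1.03 ± 0.23, edgeR adjusted p = 0.0184), and had a UMI in 52 of 85 and 193 of 688 cells. Its call was lost without tumour 1, 2 or 3 (adjusted p = 0.241, 0.185 and 0.102). Vtn, vitronectin (-2.10 ± 0.39), and Steap4, a metalloreductase (-2.62 ± 0.55), fell, and each lost its call without tumour 1 (0.0711 and 0.353) or 3 (0.0828 and 0.117). Pdgfrb was at 721, 455 and 968 CPM against 453, 423 and 687 CPM, higher in each tumour, but did not pass (0.39 ± 0.14, adjusted p = 0.202). Kcnj8 and Abcc9, the potassium channel subunits of pericytes, had differences of 0.27 ± 0.22 and 0.34 ± 0.25 (adjusted p = 0.770 and 0.741), higher in tumour 1 and lower in tumour 3, and turned to -0.29 and -0.28 without tumour 1. None of 3 tested genes of PDGF signalling (7 listed) and none of 8 tested genes of the Notch pathway (19 listed) was called by edgeR or DESeq2, with 1 higher and 1 lower PDGF gene and 0 Notch genes at an unadjusted p under 0.05. Without tumour 2, 1 Notch gene was lower, and without tumour 3, 1 was higher. With 2.82% of all tested genes called, 0 calls among 3 and 8 genes lie near that share.

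Of the signalling and vessel growth lists, 2 of 17 tested genes and 2 of 10 tested genes were called, against 2.82% of all genes tested. Tgfb1, encoding the ligand TGF-beta 1, had 463, 323 and 334 CPM against 172, 145 and 144 CPM (1.25 ± 0.17, edgeR adjusted p = 2.22e-04; 0.105 without tumour 1), with no overlap. Id4, an inhibitor of DNA binding that responds to BMP signals, had 2 and 125 counts, a ratio of 9.67 with an interval from 2.62 to 80.7; its adjusted p of 0.0130 rose to 0.356 without tumour 1 and 0.0962 without tumour 3. They were the 2 genes called of 17 tested and 27 listed for TGF-beta, activin and BMP. Of 10 tested vessel growth genes (22 listed), Angpt2 and Thbs1 fell. Thbs1, the angiogenesis inhibitor thrombospondin 1, fell by 0.94 ± 0.20 on the log2 scale but was higher in tumour 3, at 145 against 125 CPM. It was not called without tumour 1 (adjusted p = 0.717) or 2 (0.148). Of 18 tested mural transcription factors (23 listed), Nr2f2 fell (-0.72 ± 0.19, adjusted p = 0.0462; 0.567 without tumour 1 and 0.265 without tumour 3).

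In each of the remaining lists at most 1 gene was called. With 2.82% of all tested genes called, 0 or 1 call in lists of these sizes lies near that share. Cebpb was lower (-0.92 ± 0.17, edgeR adjusted p = 0.00585; 0.254 without tumour 1 and 0.14 without tumour 3) of 15 tested genes of NF-kB signalling (22 listed). Oasl2 was higher (1.31 ± 0.34, adjusted p = 0.0436; 0.831 without tumour 1 and 0.171 without tumour 3) of 12 tested interferon response and MHC class I genes (27 listed). Eno1, a glycolytic enzyme, was lower (-0.81 ± 0.20, adjusted p = 0.0381) of 22 tested hypoxia and glycolysis genes (25 listed, median -0.41), and was not called without tumours 1, 2 or 3 (0.38, 0.136 and 0.136). Ckb, a creatine kinase, was lower (-1.40 ± 0.33, adjusted p = 0.0288; 0.567 without tumour 1 and 0.129 without tumour 3) of 23 tested genes of oxidative phosphorylation and its neighbours (25 listed). None of 11 tested S phase genes (21 listed) and none of 13 tested G2 and M phase genes (22 listed) was called by edgeR or DESeq2, and 0 of either list had an unadjusted p under 0.05. Without tumour 2, 1 of 11 tested G2 and M phase genes was lower. Mki67, a marker of cycling cells, had 7 counts in Mmp9-positive cells.

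In the authors' deposited table of 19 clusters, 2 had positive log2 fold changes for all 7 gate genes, clusters 12 and 15. Mmp9 had its highest log2 fold change in cluster 12 of the authors' deposited table (5.35, adjusted p = 4.32e-15) and its next highest in cluster 15 (3.02, adjusted p = 0.113). In cluster 12 of the authors' deposited table, Mmp10 and Col10a1 had log2 fold changes of 4.18 and 5.23, and Ccl2 and Ccl7 had 1.81 and 1.93, with adjusted p-values of 0.114 and 0.0703. Col10a1 was higher still in cluster 15 of the authors' deposited table (5.81). The genes that were lowest in Mmp9-positive cells went both ways in cluster 12 of the authors' deposited table. Lmod1 (5.80), Casq2 (5.44), Cyp4b1 (4.45), Angpt2 (3.00), Cav1 (1.07) and Fxyd1 (0.66) had positive log2 fold changes there. Slpi (-4.32), Abi3bp (-4.13), Chchd10 (-2.86), Ildr2 (-1.10), Cav2 (-1.06) and Sorbs2 (-0.77) had negative ones. Hp (-1.41) and Cd38 (-0.55), which were higher in Mmp9-positive cells, were negative in that cluster too. What each cluster was set against is not stated in the table's header, and the values carry no tumour.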

How the data were processed

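The authors deposited 1 matrix of UMI counts of 3 tumours, in whole numbers and not normalized, and a table of 19 clusters that gives each gene a mean UMI score, an adjusted p-value and a log2 fold change per cluster, per the file headers. Cell Ranger 2.1.1 and Seurat 3.0 are named in the submitters' processing notes; genome build, annotation and the test behind the cluster table: not given in the sources used here. Per the labels, the barcode suffix gives the tumour.

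Cells with at least 500 genes and at most 20% mitochondrial UMIs were kept (5802, 6072 and 7428 cells in tumours 1, 2 and 3). Scrublet (scanpy 1.11.5) scored doublets per tumour at its automatic thresholds and marked 74, 94 and 144 cells, which were left out only in an alternative. All kept cells together hold 60495920, 67195839 and 52563899 UMIs. Counts of gated cells were summed per tumour with and without Mmp9 and tested with edgeR 4.0.16 in R 4.3.3 (quasi-likelihood test with filterByExpr, TMM scaling and Benjamini-Hochberg adjustment, called at 0.05). The 10 genes that define the gate or the groups (Mmp9, the 7 gate markers, Epcam and Pecam1) were not tested. Differences are fitted log2 fold changes, and each SE is the size of the difference over the root of its F statistic. CPM scale each sum to 1000000 counts before TMM scaling. The tumour was a block because both sums come from the same tumour; their deviations from the group means correlated by 0.288, 0.405 and 0.483. The p-values rest on a spread that edgeR estimates from the 3 tumour pairs of each gene and from all tested genes together. A small p-value therefore does not show that the 3 tumours agree. Dmp1 was called although it was lower in tumour 3, and Hp although 1 cell held 61 of its 63 counts in that tumour. Intervals cover counting error only, and thinning drew 3000 UMIs from each cell of at least that depth. The edgeR script was tested on simulated data.

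The members and the gene lists were chosen with earlier results of these data known. Genes are named when they are among the 12 largest or 12 smallest log2 fold changes of called genes with the same sign in 3 tumours and a mean of at least 10 CPM in the higher group, among up to 4 called genes of a list, among 6 genes most like Mmp9, or on a short standing list. Timp2, Mmp13, Ibsp, Runx2, Il6, Cxcl1, Col4a1, Postn, Col5a2, Bgn, Fabp4, Mki67, Fos, Jun, most of the 12 contractile genes and the genes of the other observations were named after their values were seen. Alternatives changed the Mmp9 threshold, the gate, the depth, the doublet, blood cell and mitochondrial filters, the low count filter, the tool (DESeq2 1.42.0), the block and the tumours used; 4 were added after seeing the data.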

Additional observations from a re-analysis of the deposited data

How the results depend on the processing

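The 182 calls (59 higher, 123 lower) became 76 with DESeq2 (23 and 53), 113 with at least 4 gate markers (30 higher), 100 after thinning (60 lower) and 303 with no filter on low counts (230 lower). Restrictions chosen after seeing the data gave 87 calls among cells without Myh11 UMIs (28 and 59), 85 with at least 5 Mmp9 UMIs (29 and 56) and 120 without Dcn or Krt18 UMIs (71 lower). Leaving out 1 tumour gave 23 to 161 calls, 7 to 52 higher and 16 to 109 lower. Pairing mattered: with no replicate block for the tumour, 4 genes were called, 0 higher and 4 lower, although the log2 fold changes of Mmp10 and Ccl2 were 3.44 and 2.31; at an unadjusted p under 0.05 that fit had 154 higher and 228 lower genes. Mmp10, Col10a1, Ccl2, Ccl7, Nrep, Serpine2 and Ednrb lost their call in no other alternative run. Of the named called genes, 9 of 56 kept their call without tumour 1, 43 of 57 without tumour 2, 29 of 57 without tumour 3, 28 of 47 with an adjusted p in DESeq2 and 56 of 56 without cells with blood cell UMIs, which took out Mmp9-negative cells only. Signs turned for Cxcl14 (0.73) without Dcn or Krt18 UMIs and Eno1 (0.05) with at least 4 gate markers, neither past the threshold there. Among genes not called, Kcnj8 turned to -0.03 without Dcn or Krt18 UMIs and ranged from -0.29 to 0.50 when 1 tumour was left out, and Abcc9 from -0.28 to 0.70, both negative without tumour 1. Mmp2 turned to 0.25 without Dcn or Krt18 UMIs, 0.13 with at least 2 Mmp9 UMIs, 0.87 with at least 4 gate markers, 0.45 with at least 5 Mmp9 UMIs, and ranged from -0.99 to 0.14 when 1 tumour was left out (0.01 without tumour 3). Timp1 turned to 0.87 without Dcn or Krt18 UMIs and 0.96 with at least 4 gate markers, both past the threshold, and to 0.02 with at least 5 Mmp9 UMIs, and 0.11 after thinning, and ranged from -0.38 to 0.13 when 1 tumour was left out, positive without tumour 2. Lcn2 turned to 0.02 with at least 5 Mmp9 UMIs. The cause of these changes was not tested. The share differences stayed positive in every alternative run, at 6.18 to 10.7 and 6.04 to 10.3 percentage points. Depth limits the Mmp9-positive sums most in tumour 3, where 3 counts equal 33.4 CPM.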

Other observations

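Gene groups put together after the values were seen are given as values, with no test of the group. Of 10 listed genes of the caveola coat and neck, Cav1 and Cav2 included, 6 were tested, 5 were lower in Mmp9-positive cells and none higher. Over all tested genes, 1.90% were called lower. Cav1 and Cav2, already named above, are among the 5. Ptrf, encoding the coat protein cavin 1, had 34.3, 43.9 and 33.4 CPM in Mmp9-positive cells of tumours 1, 2 and 3 against 129, 104 and 121 CPM in Mmp9-negative cells (log2 fold change -1.64 ± 0.30, edgeR adjusted p = 0.00375). Prkcdbp, encoding cavin 3, had 193, 215 and 89.0 CPM against 405, 372 and 285 CPM (-1.07 ± 0.19, adjusted p = 0.00278), and Ehd2, an ATPase at the caveola neck, had 72.9, 108 and 55.6 against 205, 196 and 74.2 CPM (-1.08 ± 0.25, adjusted p = 0.0234). Pacsin2 was not called (-0.77 ± 0.43, adjusted p = 0.566). Among cells without Myh11 UMIs 1 of the 6 was called lower, with a median of -1.15 against -1.36 in all gated cells, Cav1 at -4.01 (adjusted p = 0.00277) and Cav2 at -3.75 (0.0554). Without tumours 1, 2 and 3 the counts were 0 of 8, 4 of 7 and 2 of 7.

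Complement genes and detoxifying enzymes were also among those that fell. Of 24 listed complement genes 8 were tested and 4 were lower: C1s1, a serine protease of the first component, had 21.4, 35.9 and 11.1 CPM against 174, 119 and 208 CPM (-2.61 ± 0.34, edgeR adjusted p = 1.84e-04), and C1ra, C3 and the inhibitor Serping1 had log2 fold changes of -2.77 ± 0.58, -2.17 ± 0.31 and -0.92 ± 0.14. Of 18 listed glutathione transferases and metallothioneins 12 were tested, 6 were lower and none higher. Mgst3 had 116, 95.7 and 100 CPM against 293, 254 and 559 CPM (-1.66 ± 0.22, adjusted p = 1.84e-04), and the metal-binding Mt1 had 459, 299 and 667 against 575, 1116 and 1172 CPM (-1.04 ± 0.20, adjusted p = 0.00668). Without tumour 1 no gene of either group was called, and among cells without Myh11 UMIs 3 complement genes and 4 of the second group were.

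Ecscr, a surface protein listed as an endothelial marker, was higher in Mmp9-positive cells, at 446, 275 and 311 CPM against 224, 146 and 156 CPM (0.94 ± 0.17, edgeR adjusted p = 0.00316). The 10 endothelial markers, Ecscr included, summed to 785, 407 and 545 CPM against 555, 345 and 561 CPM. In all other kept cells they summed to 273, 81.9 and 116 CPM. Ecscr made up most of the sum in Mmp9-positive cells of each tumour. Of the 10 markers, 3 were tested and only Ecscr was called, and Kdr, Cldn5, Tie1 and Tek had no UMI in Mmp9-positive cells.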
